A study of Mus musculus with 4 samples.

Results

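The genes of oxidative phosphorylation were followed through maps of trimethylated lysine 36 of histone H3 (H3K36me3) in the embryonic mouse forebrain. The members were the genes that the authors' peak annotation names with a symbol starting with Nduf, Uqcr, Sdha to Sdhd, Cox4 to Cox8 or Atp5, leaving out names marked as pseudogenes. There were 74 of them among the 12987 genes named in either annotation. By name, 31 belong to complex I, 4 to complex II, 8 to complex III, 11 to complex IV and 13 to complex V, and 7 are assembly factors. A gene enters the annotation only because a peak in 1 of the libraries was assigned to it, so having a peak somewhere is part of how the members were found.

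Chromatin came from neural progenitor cells of C57BL/6 mouse brain at embryonic day 13, and the sampled region was the forebrain. Both groups share strain, stage and tissue. One was wild type (WT) and the other carried a brain-specific deletion of H2A.z1 (H2A.z1cKO, here cKO), the gene of a histone variant that replaces H2A in some nucleosomes. The driver of the deletion and the number of embryos behind each library are not given in the sources used here. Each genotype had 1 library made with an H3K36me3 antibody and 1 input library, so there is no replicate of any value below, no test between genotypes was made, and differences are given by size alone.

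Oxidative phosphorylation couples the oxidation of nutrients to the making of ATP in the inner mitochondrial membrane. Complexes I and II pass electrons from NADH and succinate to ubiquinone, complex III hands them to cytochrome c, complex IV passes them to oxygen, and complex V uses the proton gradient built by complexes I, III and IV to form ATP. Most subunits are encoded in the nucleus and transcribed in nearly all cells, and the rest come from the mitochondrial genome. H3K36me3 is placed by SETD2, which travels with elongating RNA polymerase II, so the mark lies over the bodies of transcribed genes and is thickest towards their 3′ ends.

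The WT library gave 36820 peaks over 13.3 Mb and the cKO library gave 95750 peaks over 69.1 Mb, from 31984670 and 32927164 tags. The cKO list was thus 2.6 times longer in peaks and 5.18 times longer in covered bases at 1.03 times the tags, and every comparison of the members sits on that whole-list difference. The modelled fragment length also differed, at 152 bp in WT and 185 bp in cKO. In a bulk sample, a mark carried by more cells and more mark per cell cannot be told apart. With 1 ChIP library per genotype, a genotype difference also cannot be told apart from one between the libraries, as in enrichment or peak calling. Among the markers of neural progenitors, 7 of 10 genes carried a body peak in WT and 9 in cKO, with Fabp7 at 0 in both. The neuron list had 2 and 3 of 6, the endothelial list 0 and 0 of 4, the muscle list 0 and 0 of 4, the microglial list 0 and 1 of 4 and the erythroid list 0 and 1 of 3. H2afz, the deleted gene (H2az1 in RefSeq), was covered over 7.8% of its body in WT and 21.1% in cKO, and a histone mark does not check a deletion.

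A non-intergenic peak was assigned to 60 of the 74 genes in WT and to 73 in cKO, against 64.7% and 94.1% of all named genes. In both libraries 59 genes had one, 14 had one in cKO alone, and 1 had one in WT alone. Over all 12987 named genes, 8406 had one in WT, 12221 in cKO and 8054 in both. Genes with a peak in cKO alone were thus common over the whole list too. The members held 167 peaks summing to 61755 bp in WT and 440 peaks summing to 350616 bp in cKO. That is 5.68 times more covered length, beside 5.18 times over the non-intergenic peaks of all genes. The median gene with peaks in both libraries had 5.14 times the length in cKO (quartiles 3.36 and 8.14), beside 5.48 (3.22 and 9.53) over all 8054 such genes. The increase in the members was therefore close to the shift of the whole list.

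Summed length was at least 2 times higher in cKO in 52 of the 59 genes and at least 2 times lower in 1, while 89.9% and 0.546% of all genes with peaks in both libraries passed the same bounds. Another 5 genes were longer in cKO by less than 2 times, namely Uqcrq, Atp5b, Atp5a1, Sdhaf2 and Cox7a1, with ratios from 1.33 to 1.99. Uqcr10 had the highest ratio, 34.0, followed by the assembly factor Ndufaf7 at 30.3 and by Ndufb2 at 22.5. These ratios rest on WT lengths of only 152, 320 and 219 bp, in peaks outside the gene's own body. At the other end, only Uqcr11 and Cox6a1 had less length assigned in cKO than in WT.

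**Figure D1:**
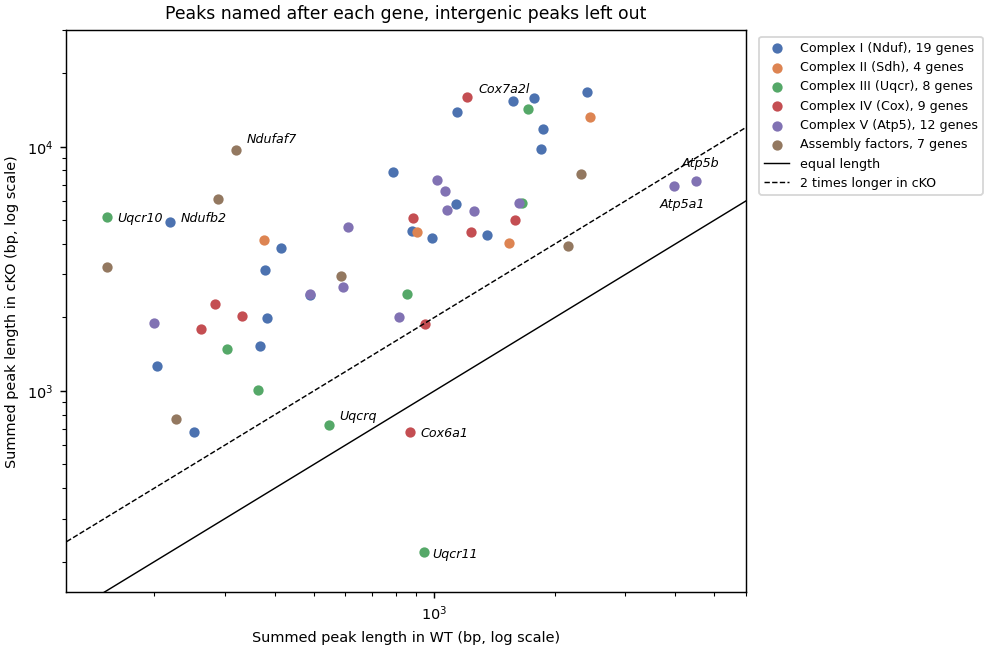
Summed length of the non-intergenic peaks assigned to each gene in WT (x axis, bp, log scale) and in cKO (y axis, bp, log scale), with 1 point per gene for the 59 genes with peaks in both libraries and colours for the complexes. Most points lie above the dashed line of a ratio of 2, Atp5b and Atp5a1 lie just under it at the right, and Uqcr11 and Cox6a1 lie below the line of equal length.

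The symbol attached to a peak does not always name the gene under it. Of the peaks named after a member, 127 of 167 in WT (76.0%, exact Clopper-Pearson 95% interval 68.8% to 82.3%) and 290 of 440 in cKO (65.9%, 61.3% to 70.3%) overlapped that gene's own RefSeq span. Another protein-coding gene lay under 25 of the 40 WT peaks and 118 of the 150 cKO peaks outside. These intervals cover counting error only. Body coverage, the share of the RefSeq gene span that lies inside peaks, was therefore taken as the second measure of every gene.

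Cox7a2l, which encodes a factor that joins complexes III and IV into supercomplexes, shows how far both measures can part. It had the most assigned cKO peaks of any member, 25 with 16020 bp, and 5 WT peaks with 1209 bp. Of the 25 cKO peaks, 23 with 14667 bp lay over its neighbour Eml4. Its own body was covered over only 3.36% in WT and 9.16% in cKO, in 1 and 2 peaks near the 3′ end.

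Several other genes with many assigned peaks shared this feature, but not all did. Ndufs1 had 21 of 21 cKO peaks in its own body, Ndufa9 20 of 20, Ndufa10 19 of 20 and Uqcrc2 19 of 19. All 16 cKO peaks of Atp5l, the g subunit of complex V, lay outside it, 15 of them over Ube4a, and its own body had none in either library. Cox6c, a complex IV subunit, likewise had 3 WT and 9 cKO peaks, of which 3 and 8 lay over Vps13b, and a body without a peak. Ndufb9 had 14 of its 17 cKO peaks over Mtss1, Uqcr10 had 9 of 10 over Ascc2, Ndufaf7 had 9 of 16 over Prkd3 and Ndufb2 had 7 of 11 over Braf. The 3 highest ratios of assigned length were thus reached in genes with most cKO peaks over a neighbour, whereas Ndufaf5, with a ratio of 21.2, had 9 of 9 cKO peaks in its own body.

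**Figure D2:**
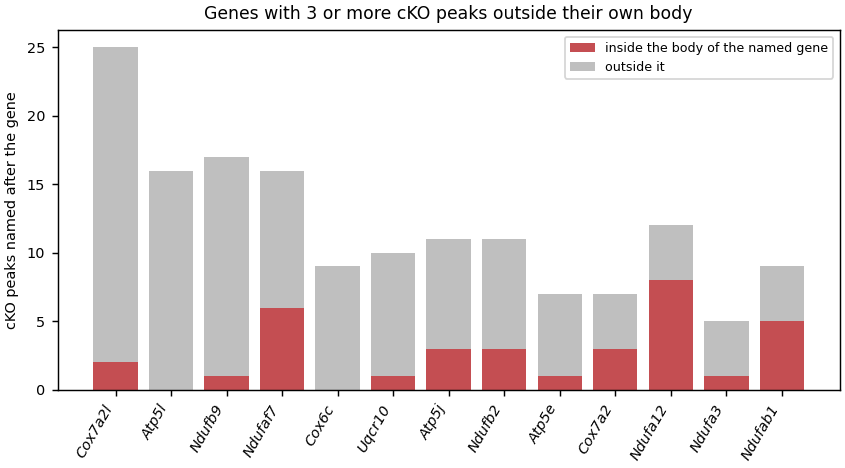
Number of cKO peaks named after each gene (y axis), split into peaks inside the gene's own body (red) and outside it (grey), for the 13 genes with 3 or more peaks outside. Cox7a2l has 25 peaks with 2 inside its body, and none of the 16 peaks of Atp5l lies inside.

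Body coverage was higher in cKO in both genes that were shorter by assigned length. Uqcr11, a small complex III subunit, had 3 WT peaks with 940 bp and a single cKO peak with 218 bp, a ratio of 0.232. Its body was nonetheless covered over 18.6% in WT and 35.1% in cKO, and the cKO peak over its 3′ part carried the name Mbd3. For Cox6a1, a complex IV subunit, assigned length was 869 and 682 bp while body coverage was 9.71% and 30.7%, with a 3688-bp cKO peak at its end named after Triap1. Ndufb10, a complex I subunit and the only gene with an assigned peak in WT alone (1 peak, 654 bp), had body coverage of 27.7% and 30.3% in the WT and cKO libraries, and the cKO peak of 1614 bp carried the name Rps2.

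Over gene bodies, 53 of the 74 genes carried a peak in WT and 71 in cKO, against 31.5% and 43.9% of 21779 protein-coding genes. The 53 genes of the WT set all kept a peak in the cKO list. No such share over all protein-coding genes was computed, but 96.0% of all WT peaks overlapped a cKO peak. The full overlap is therefore not shown to be particular to the members. Ndufa4l2, Cox6c and Atp5l had no body peak in either library. Since the members were found through peaks, the 100 RefSeq protein-coding genes with symbols of the same patterns give the share without that selection. Of these, 57 carried a body peak in WT and 81 in cKO.

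Median coverage of the 74 bodies was 5.33% in WT and 29.9% in cKO. The median difference was 24.2 percentage points, with quartiles of 12.7 and 37.5. Coverage was at least 10 points higher in cKO in 58 genes and at least 10 points lower in 0, beside 28.1% and 0.0138% of all protein-coding genes. Because 14 members had assigned peaks in cKO alone, part of this count follows from how they were found. Over the 100 RefSeq genes of the name patterns, 66 were at least 10 points higher and 0 lower, with medians of 2.73% and 25.1% and a median difference of 19.0 points. Among the members, coverage by any amount was higher in 70 genes, equal in the 3 genes without a peak and lower in Atp5g1 by less than 1 point. The share of all genes higher by any amount was not computed, so this count describes the members only. Restricted to genes with a WT body peak, the 53 members had medians of 8.25% and 38.1% and a difference of 28.5 points. Over all 6861 such genes these were 4.50%, 30.3% and 22.8 points. Lower quartiles of that difference were 15.1 points in the members and 10.2 over all, so most genes of both sets passed the 10-point rule. The 28.1% also counts genes without a peak in either library. The members' bodies were shorter, with a median of 7502 bp beside 17217 bp for all protein-coding genes, and the part of length in these values was not tested.

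**Figure D3:**
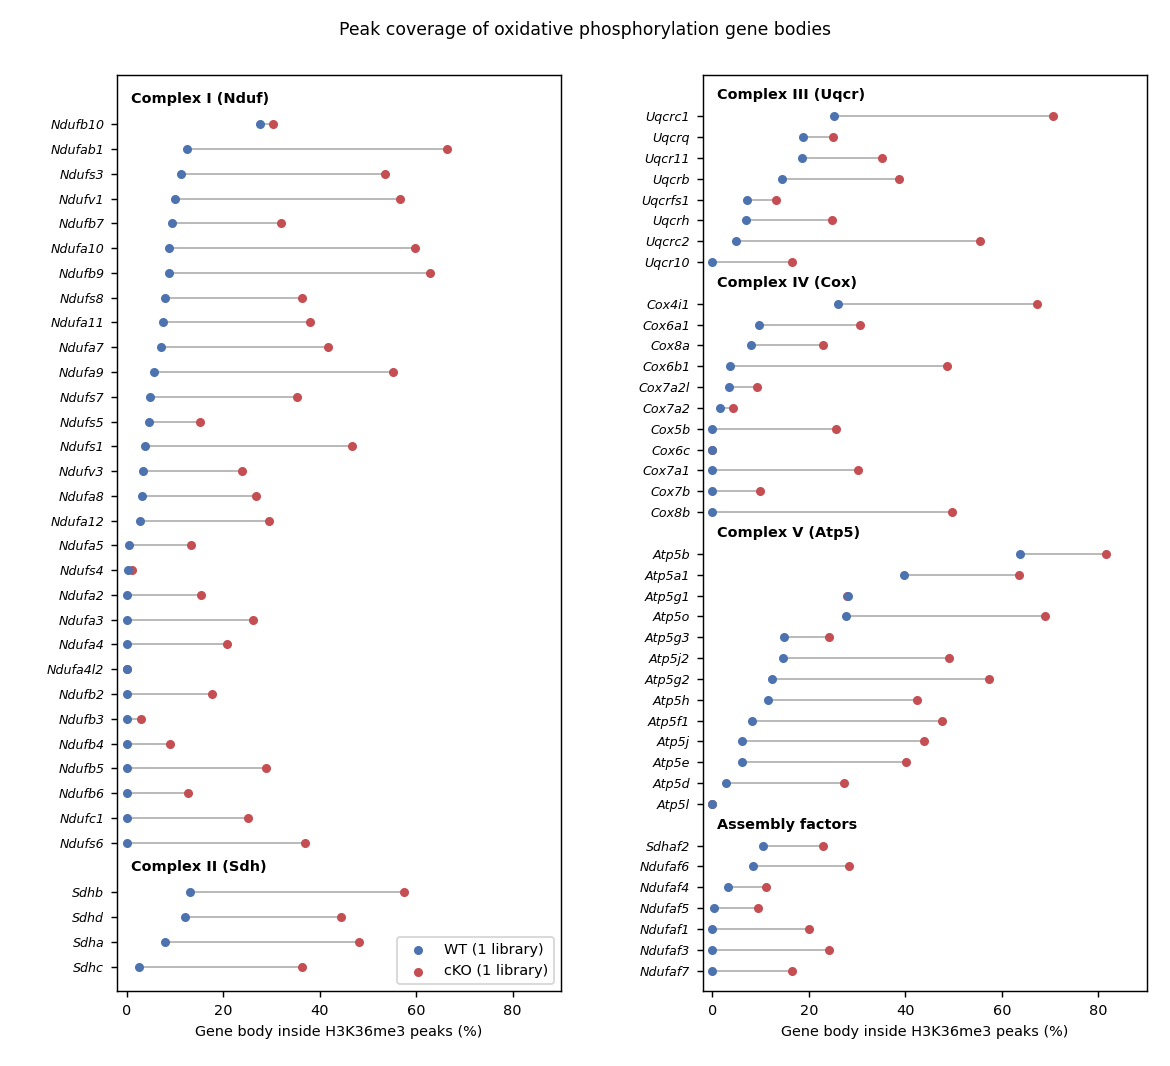
Share of each gene body inside H3K36me3 peaks (x axis, percent) for 73 of the 74 genes, grouped by complex, with blue points for the WT library and red points for the cKO library, joined by a grey line. Red lies right of blue in most genes, and Atp5b has the highest coverage in both libraries.

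More than 50% of the body was covered in 1 gene in WT and in 14 genes in cKO, against 0.285% and 8.04% of all protein-coding genes. The gene in WT was Atp5b. In cKO the other 13 were Ndufa9, Ndufa10, Ndufab1, Ndufb9, Ndufs3, Ndufv1, Sdhb, Uqcrc1, Uqcrc2, Cox4i1, Atp5a1, Atp5g2 and Atp5o, so every complex had at least 1.

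All of these differences depend on how much of the genome each list covers. When the cKO list was cut to the WT covered length by keeping its peaks of highest −log10 q, only 17 members kept a body peak and the median difference became −2.80 points. Then 6 genes were at least 10 points higher (8.11%) and 14 at least 10 points lower (18.9%), beside 4.27% and 2.55% of all protein-coding genes, of which 3031 kept a cKO peak. Among genes with a WT body peak the order for higher coverage turned, with 4 of 53 members higher (7.55%) and 14 lower (26.4%), beside 13.3% and 8.09% of all 6861 such genes. The medians there were −5.64 points for the members and −0.99 for all. Atp5b, Atp5g1, Ndufb10 and Cox4i1 lost every cKO peak under that limit, while Cox8b, Atp5o, Ndufaf3, Atp5a1, Ndufb7 and Uqcrc2 stayed higher by 49.6, 41.3, 24.2, 23.9, 22.5 and 13.1 points. The values of Cox8b, Ndufaf3 and Ndufb7 each came from 1 cKO peak that also reached a neighbour, Psmd13, Impdh2 and Tecr. Of these peaks, 746 of 2273 bp, 447 of 2964 bp and 1556 of 3839 bp lay in the member's body.

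Complex I had the lowest WT coverage of the respiratory complexes with the exception of complex IV. Its 31 genes had a median of 3.37% in WT and 29.5% in cKO, and 20 and 30 of them carried a body peak. Of the 26 genes at least 10 points higher in cKO, several encode the core that carries electrons. Ndufv1, the flavoprotein that accepts electrons from NADH, was covered over 10.0% in WT and 56.7% in cKO. The cKO value came from 1 peak of 4520 bp that also reached Doc2g, with 2981 bp in the body of Ndufv1. Ndufs1, the largest iron-sulfur subunit, went from 3.89% to 46.8%. Ndufs3, another core subunit, had 11.2% in WT and 53.5% in cKO. The iron-sulfur subunits Ndufs7 and Ndufs8 had 4.79% and 7.95% in WT and 35.3% and 36.4% in cKO. These core genes were chosen from those at least 10 points higher in cKO. Ndufv2, a core subunit that no peak was named after, had only 1.48% and 11.2%.

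Accessory subunits of complex I spread more widely. Ndufab1, the mitochondrial acyl carrier protein, reached the highest complex I coverage in cKO, with 12.4% and 66.4% and with 6 WT and 9 cKO peaks assigned. Ndufb9 had 8.82% and 63.0%, in a single 4265-bp cKO peak over the body, and Ndufa10 had 8.84% and 59.8%. Ndufa9 (chr6:126821863-126849144, GRCm38) had 5 WT peaks over 5.77% of its body and 20 cKO peaks over 55.2%.

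Ndufs4, an accessory subunit whose loss is known from Leigh syndrome, stood at the other extreme. Its body is the longest of the members, 100300 bp, and 0.202% and 1.08% of it lay inside peaks. Its single WT body peak of 203 bp lay 23454 bp from the start, and 1 of its 3 cKO body peaks overlapped the same place. Of the 11 complex I genes with assigned peaks in cKO alone, Ndufb5 had the most length, 5938 bp in 7 peaks with 28.8% of the body covered. Ndufa3 (2232 bp, 4 of 5 peaks over Tfpt) and Ndufs6 (2105 bp, 37.0% covered) followed, and the other 8 had between 689 and 1969 bp. For Ndufs8 a WT peak named after Tcirg1 covered 7.95% of the body, so its absence from the WT count rests on the naming. For Ndufa5 a WT peak named after Iqub covered only 0.41% of the body. That peak ran from 8992 to 9596 bp along a 9029-bp body and so lay mostly past the 3′ end.

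Ndufa4 and Ndufa4l2 are related genes, of which Ndufa4 is now counted with complex IV and Ndufa4l2 is known as a hypoxia-induced gene. Ndufa4 had 0% in WT and 20.9% in cKO, in 5 peaks. Ndufa4l2 had 1 cKO peak assigned, which lay over Shmt2, and 0% in both.

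Complex II, the succinate dehydrogenase, was marked in full in both libraries. Median coverage of its bodies was 10.0% and 46.4%, and the 4 genes were between 32.5 and 44.3 points higher in cKO. Sdha (chr13:74322255-74350240), the flavoprotein that oxidises succinate, had 8 WT and 13 cKO peaks assigned and 8.00% and 48.2% of its body covered. Sdhb, the iron-sulfur subunit, had 13.2% and 57.5%. The membrane anchors Sdhc and Sdhd had 2.65% and 12.1% in WT and 36.4% and 44.5% in cKO. Sdhc was lowest in both libraries, and its ratio of assigned length, 11.0, was the highest of the 4.

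Among the 8 complex III genes, 7 carried a body peak in WT and all 8 in cKO, with medians of 10.9% and 30.0%. The core proteins stood apart from the small subunits in cKO. Uqcrc1 (chr9:108936648-108949641) had 25.3% and 70.6%, and Uqcrc2 had 4.89% and 55.5%. The other 6 lay between 13.2% and 38.7% in cKO. Uqcrfs1, the Rieske iron-sulfur protein, had 7.23% and 13.2%, a difference of 5.95 points, and Uqcrq had 18.7% and 24.9%. In Uqcr10 no WT peak reached the body and 16.4% was covered in cKO. Uqcrb had 14.5% and 38.7%, and Uqcrh had 6.91% and 24.8%.

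In complex IV the ubiquitous subunits were uneven. Cox4i1, the largest of the nuclear-encoded subunits, had 26.0% and 67.4%, in 3 WT peaks and a single cKO body peak of 4271 bp. Cox6b1 had 3.61% and 48.5%, and Cox6a1 9.71% and 30.7%. Cox8a had 7.89% and 23.0%, Cox5b 0% and 25.6%, and Cox7b, on the X chromosome, 0% and 9.90%. Cox7a2 was low over its RefSeq span, at 1.61% and 4.18%, and Cox6c had none. The 16182-bp span of Cox7a2, on the minus strand, ends at chr9:79771422, while its promoter window ends at 79760103. Much of the span thus lies upstream of that window, including 2482 bp without a peak shared with Tmem30a. Outside that overlap Cox7a2 had 1.9% and 4.9%, and coverage from its own start was not computed. The median of the 11 genes was 1.61% in WT and 25.6% in cKO.

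Several complex IV subunits exist as pairs, with a form of most tissues and a form of fewer tissues, in some pairs heart and muscle or testis. The 5 forms Cox4i2, Cox6a2, Cox6b2, Cox7b2 and Cox8c had no peak over their bodies in either library. The muscle forms Cox7a1 and Cox8b were covered over 30.3% and 49.6% in cKO, from 0% in WT, although no marker of the muscle list carried a peak. For Cox8b the coverage came from 1 cKO peak of 2273 bp, of which 746 bp lay in its 1505-bp body and which also reached Psmd13. The WT peaks of Cox7a1 and Cox8b lay outside their bodies, over Capns1 and Psmd13 or between genes. Cox7a1 had 2 cKO peaks over its 1860-bp body, and neither reached another protein-coding gene.

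Complex V had the highest WT coverage of the groups, with a median of 12.3%, and reached 43.8% in cKO. Atp5b (chr10:128083307-128090388, ENSMUSG00000025393.6), the catalytic beta subunit, was covered over 63.7% in WT and 81.7% in cKO. It lay above 99.8% of the 6861 protein-coding genes marked in WT and above 99.3% of the 9568 marked in cKO. The 4 WT peaks summed to 4509 bp and the 4 cKO peaks to 7217 bp, a ratio of 1.60. In WT the peaks ran from 1658 bp to 6959 bp along the 7082-bp body, and in cKO 1 peak of 5475 bp took in all 4. Atp5b was thus already covered in WT over most of the stretch it had in cKO, and its ratio was among the lowest.

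Atp5a1, the alpha subunit that alternates with beta in the catalytic ring, came second in WT, with 39.7%, and had 63.5% in cKO. Its 5 WT peaks were spanned by 1 cKO peak of 6904 bp, the longest peak of any member, and its ratio was 1.74. Atp5o (chr16:91925223-91931630), which encodes the subunit of the stalk that links the catalytic head to the stator, had 27.7% and 69.0%. A single cKO peak of 5488 bp, which ran past the 3′ end, held 5 WT peaks. Over the RefSeq spans of the central stalk subunits, coverage was 2.81% and 27.3% for Atp5d and 6.05% and 40.1% for Atp5e. The span of Atp5d starts at chr10:80138698, upstream of its promoter windows, which start at 80142025 and 80142065. It shares 1658 bp without a peak with Cbarp, and coverage outside that overlap was 3.65% and 35.5%. Atp5d is thus not shown to be lower from its own start. Stator and membrane subunits had 8.25% and 47.7% (Atp5f1), 11.6% and 42.5% (Atp5h), 6.22% and 43.8% (Atp5j) and 14.5% and 48.9% (Atp5j2).

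Atp5g1, Atp5g2 and Atp5g3 encode the same mature c subunit, which forms the rotating ring, with different leader peptides. Their coverage differed. Atp5g2 had 12.3% and 57.4%, Atp5g3 had 14.7% and 24.2%, and Atp5g1 had 28.1% in WT and 28.0% in cKO. Atp5g1 was the only member with lower body coverage in cKO, with a difference of −0.0689 points. Its single WT peak of 814 bp stood at the place of 2 cKO peaks, and with only peaks of at least 4-fold enrichment its cKO coverage was 8.86%.

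**Figure D4:**
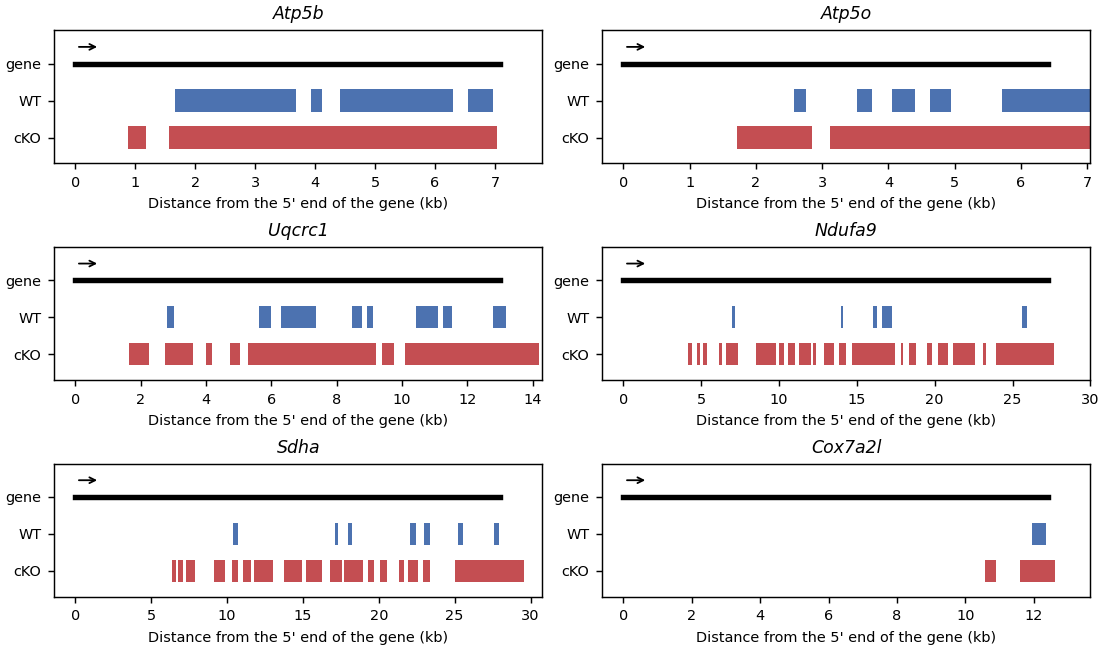
Peaks over 6 gene bodies drawn from the 5′ end (x axis, kb), with the gene as a black line, WT peaks in blue and cKO peaks in red, cut at the panel edge where they run on. In Atp5b, Atp5o and Uqcrc1 separate WT peaks lie within long cKO peaks, in Ndufa9 and Sdha many more cKO peaks fill the body, and in Cox7a2l the peaks are limited to the 3′ end.

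The assembly factors, which help to build complexes I and II but are not part of them, had the lowest medians, 0.31% in WT and 20.1% in cKO. All 7 had assigned peaks in both libraries, and 4 and 7 had body peaks. Sdhaf2, which helps attach the flavin to Sdha, had the strongest WT peak of the members by the authors' fold enrichment, 12.2, and 10.4% and 22.9% of its body covered. Ndufaf6 had 8.51% and 28.4%, and Ndufaf4 3.27% and 11.0%. Ndufaf5, which modifies Ndufs7, had a single 152-bp WT peak and 9 cKO peaks, with 0.31% and 9.52%. Ndufaf1, Ndufaf3 and Ndufaf7 had no WT peak over their bodies and 20.1%, 24.2% and 16.4% in cKO. In Ndufaf3 the cKO peak of 2964 bp had only 447 bp in the body and reached Impdh2.

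In both libraries mean coverage was higher in each successive part of the bodies from 5′ to 3′. Strand was known for 43 members with a body peak in WT and 60 in cKO. Bodies were divided into 5 equal parts. From the 5′ to the 3′ part, mean coverage in WT was 0%, 4.50%, 6.35%, 16.8% and 25.2%, beside 1.29%, 5.13%, 9.15%, 12.96% and 14.7% over all such protein-coding genes. In cKO it was 2.47%, 16.6%, 30.0%, 52.4% and 61.1%, beside 5.93%, 19.0%, 29.1%, 37.4% and 42.1%. Coverage was highest in the last part in 21 of 43 and 27 of 60 genes, which is 48.8% and 45%, beside 43.9% and 45.3% of all genes. The members thus had less mean coverage in the first part and more in the last 2 parts than all marked genes, in both libraries. Median bodies were 7502 bp for the 74 members and 17217 bp for all protein-coding genes. The part of length in these positions was not tested.

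**Figure D5:**
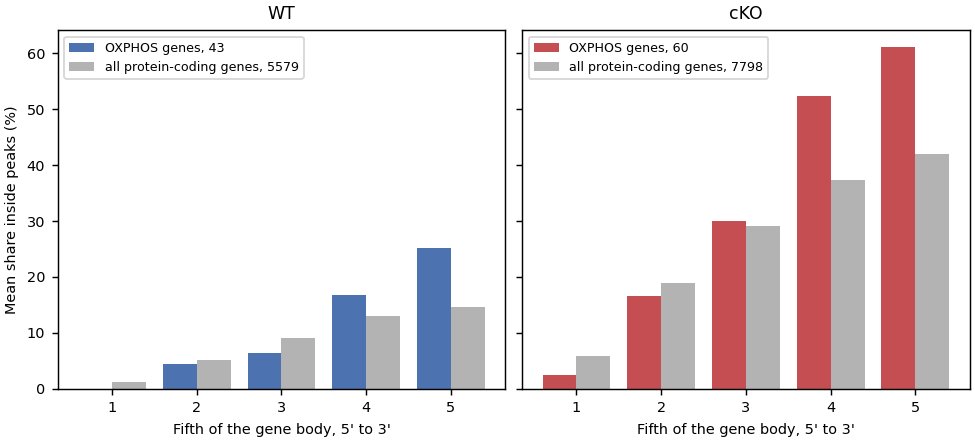
Mean share of each of 5 equal parts of the gene body inside peaks (y axis, percent) from 5′ to 3′ (x axis), in WT (left) and cKO (right), for members (coloured) and all protein-coding genes with a body peak and known strand (grey). Bars of the members are lower than the grey bars in part 1 and higher in parts 4 and 5.

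The first peak lay a median of 4661 bp from the 5′ end in WT (1639 to 23454 bp, 64.5% of the body) and 3086 bp in cKO (759 to 15155 bp, 46.6%). In 41 of the 43 genes with a peak in both libraries it lay nearer to the start in cKO, beside 93.7% of 5505 protein-coding genes, and the median shift was 1095 bp beside 2023 bp. No first peak lay within 500 bp of the 5′ end. These distances run from the 5′ end of the RefSeq span. For Cox7a2, which gave the cKO maximum, and for Atp5d that end lies upstream of the promoter windows, so their distances are too long.

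The authors' classes also placed peaks at gene ends, but not always those of the member. The class transcript belonged to the member's gene in 87 WT and 207 cKO peaks. It belonged to another gene in 14 and 43, and was unmatched in 66 and 190. In WT, 45 of the 167 peaks were classed at the transcription termination site (26.9%, 20.4% to 34.4%), beside 17.9% of all genic peaks, and 72 in introns (43.1%, 35.5% to 51.0%), beside 50.9%. In cKO, 84 of 440 were at the termination site (19.1%, 15.5% to 23.1%), beside 14.3%, and 279 in introns (63.4%, 58.7% to 67.9%), beside 64.0%. Exons held 30 and 57 peaks. Peaks of 1 gene share their source, so these intervals again cover counting error only.

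Another 20 peaks in each library were classed as promoter. Ndufs3, Ndufv1, Sdha, Uqcrc2, Cox4i1 and Atp5b were among the genes with such peaks in both. All 20 in WT and 19 in cKO lay within the gene's own body, and where a RefSeq start was at hand (13 and 14 peaks) the nearest start was a median of 4625 and 4543 bp away, with a least distance of 1658 and 651 bp. For those 13 and 14 peaks the promoter class therefore did not mark RefSeq starts. For the others, among them all such peaks of Cox4i1 and Uqcrc2, the distance could not be measured.

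The start windows themselves were empty. RefSeq promoter windows on GRCm38.p6, from 250 bases before to 50 after a start, were at hand for 61 members with 65 windows, and 0 of 65 held a peak in either library, which allows a share of up to 4.62%. Of all 32851 windows, 0.338% held a peak in WT and 1.26% in cKO. The windows were searched on both strands for motifs of factors known from genes of the respiratory chain. The NRF1 palindrome of 10 bases, which starts with GCGCATG and so holds this shorter motif on both strands, was in 6 of 65 windows (9.23%), beside 0.971% of all windows, and GCGCATG was in 12 (18.5%), beside 3.91%. The YY1 motif AAGATGGC was in 9 (13.8%), beside 2.75%, and the ETS cores CCGGAAGT or GCGGAAGT in 7 (10.8%), beside 5.35%. A match describes letters in a window and not binding.

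Sequences of 200 bases before the start, 5′ to 3′ on the gene's strand from RefSeq (GRCm38.p6), are shown for Atp5b, the most covered body, and for the 4 members with the whole palindrome in that stretch, to set unmarked starts beside marked bodies. Capitals mark the palindrome, whose first base lies 42 bases before the start in Atp5g2, 162 in Cox6a1, 60 in Ndufa11 and 113 in Ndufaf4. Atp5b has none. The coordinates are chr10:128083107-128083306 (plus strand) for Atp5b, chr15:102671048-102671247 (minus) for Atp5g2, chr5:115348959-115349158 (minus) for Cox6a1, chr17:56717562-56717761 (plus) for Ndufa11 and chr4:24897883-24898082 (plus) for Ndufaf4.
Atp5b: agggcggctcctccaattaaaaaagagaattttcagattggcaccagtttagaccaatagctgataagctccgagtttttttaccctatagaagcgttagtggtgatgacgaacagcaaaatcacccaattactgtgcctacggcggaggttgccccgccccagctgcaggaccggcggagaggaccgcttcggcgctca
Atp5g2: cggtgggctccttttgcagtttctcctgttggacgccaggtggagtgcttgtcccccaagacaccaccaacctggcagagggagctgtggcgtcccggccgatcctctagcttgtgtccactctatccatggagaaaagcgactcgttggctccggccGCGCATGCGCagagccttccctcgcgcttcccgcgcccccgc
Cox6a1: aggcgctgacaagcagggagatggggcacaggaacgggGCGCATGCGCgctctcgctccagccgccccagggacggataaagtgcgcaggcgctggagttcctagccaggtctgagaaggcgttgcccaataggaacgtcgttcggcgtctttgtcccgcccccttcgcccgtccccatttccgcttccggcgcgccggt
Ndufa11: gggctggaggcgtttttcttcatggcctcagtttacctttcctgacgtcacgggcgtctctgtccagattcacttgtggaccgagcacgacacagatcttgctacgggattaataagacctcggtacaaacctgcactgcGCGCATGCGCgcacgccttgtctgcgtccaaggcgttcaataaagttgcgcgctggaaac
Ndufaf4: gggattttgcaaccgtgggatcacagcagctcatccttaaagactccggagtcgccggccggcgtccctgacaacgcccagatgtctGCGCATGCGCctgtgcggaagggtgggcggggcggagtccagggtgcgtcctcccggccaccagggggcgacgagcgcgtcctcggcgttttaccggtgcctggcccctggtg

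None of these 5 stretches held a peak, while the bodies behind them ranged from 3.27% (Ndufaf4) to 63.7% (Atp5b) in WT and from 11.0% to 81.7% in cKO. Ndufa11, an accessory subunit of complex I, had 7.54% and 38.1%. The other 2 members with the palindrome were Ndufaf5 and Uqcrc1, so it was found in complexes I, III, IV and V and in assembly factors.

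WT peaks were nearly all found again in cKO. Of the 167, 165 overlapped a cKO peak (98.8%, 95.7% to 99.9%), beside 96.0% of all WT peaks, and the exceptions lay in introns assigned to Cox6c and Ndufaf5. In the other direction 115 of 440 cKO peaks overlapped a WT peak (26.1%, 22.1% to 30.5%), beside 25.3%. Median peak widths were 261 and 486 bp in the WT and cKO lists, beside 271 and 439 bp over all genic peaks. Peaks longer than 2 kb numbered 2 of 167 and 33 of 440 (7.5%), beside 0.478% and 6.09%. At least 2 WT peaks fell inside each of 27 cKO peaks, as in Atp5a1 and Atp5o (5 each) and in Atp5b, Uqcrc1 and Atp5j2 (4 each). No such share over all cKO peaks is at hand, so this count describes the members' peaks only.

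Another 26 RefSeq genes have symbols of the name patterns, but no peak was annotated with these symbols. In 10 of them the body carried a cKO peak, and in 4 also a WT peak. The cKO peaks stood under an older symbol of the same gene in 2 cases, Atp5md and Atp5mpl, and under the name of another gene in 8. Atp5c1, the gamma subunit that turns within the catalytic ring, had 3.61% and 38.0% under the names Gm23608 and Taf3. Ndufb8, an accessory subunit of complex I, had 16.9% and 55.5%, and the values of Ndufv2, the partner of Ndufv1, are given with the core subunits. Cox5a, an early partner in the assembly of complex IV, had 0% and 11.5%. The other 16 had no body peak in either library, with a median body of 1892 bp.

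A wider list held 39 genes of oxidative phosphorylation outside the name patterns, among them cytochrome c1, cytochrome c and further assembly factors, after Usmg5 was left out as an older symbol of Atp5md. Body peaks were found in 21 of them in WT and 32 in cKO, against 31.5% and 43.9% of all protein-coding genes. Their median coverage was 0.26% and 18.6%, with 27 genes at least 10 points higher in cKO and 0 lower, against 28.1% and 0.0138%. Cyc1, cytochrome c1 of complex III, had 9.0% and 40.4%, Cycs, cytochrome c, had 0% and 6.89%, and Acad9, a complex I assembly factor, had 3.65% and 59.3%. Among 15 regulators of mitochondrial genes, 11 and 13 had body peaks, and 11 were at least 10 points higher in cKO, against the same 31.5%, 43.9% and 28.1%. Tfam, which packages mitochondrial DNA, had 4.70% and 53.3%, and Polrmt, the mitochondrial RNA polymerase, had 23.7% and 65.4%. The coactivators Ppargc1a and Ppargc1b had no peak in either library. Both lists thus had higher median coverage in cKO, as the members had. Here too the 28.1% also counts genes without a peak in either library.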

How the data were processed

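H3K36me3 ChIP-seq peaks were analysed from 1 ChIP library per genotype, each called against an input. The submitters' processing notes list Bowtie2 2.2.9, FastQC, bedtools and the mm10 build. The authors called narrow peaks with MACS (2.1.1.20160309 per the file headers, 2.1.0 per the submitters' processing notes) at a p cutoff of 1.00e-05, from 31984670 WT and 32927164 cKO tags. The name of the cKO input carries 2 numbers, and no source used here says whether it is a pool.

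For each peak the deposited lists hold its position, length, summit pileup (signal), fold enrichment and −log10 p and −log10 q. Signal, fold and −log10 q depend on the library, so they were used only to describe or filter peaks within 1 list. A second deposited table names a class and a gene for each peak, and no source used here names the tool behind it.

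Members were found by symbol, and all 74 matched RefSeq (GRCm38.p6), Atp5f1 through a synonym. Peaks classed as intergenic were left out of counts and lengths. Coverage is the share of the gene span inside merged peaks, and at least 1 bp of overlap counted. Of 21887 protein-coding genes, 21779 were kept, since spans that start in the first 3 Mb of a chromosome other than Y were left out. Strand and promoters came from RefSeq windows. With 1 library a group, a gene was called by size, at least 2 times the length or 10 percentage points of coverage. Confidence intervals are exact Clopper-Pearson at 95% and cover counting error only.

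The members and gene lists were chosen with earlier results of these data known. Genes were named by a rule: per complex the 3 with the most WT length and the 3 with the highest ratio, genes shorter in cKO or with peaks in 1 library (cKO alone from 2 kb), isoform pairs, the genes with the most peaks, and genes with promoter-class peaks in both. Other genes were named after their values were seen. Alternatives covered peak strength, list length, joining within 3 kb, flanks, overlap, naming and assembly factors. The overlap routine was tested on simulated data. A planned comparison of protein sequences was not run. The values of 1 member are not reported here singly, though it is part of all counts and medians. Python 3.11.15, pandas 2.3.3, numpy 2.4.6 and scipy 1.17.1 were used.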

Additional observations from a re-analysis of the deposited data

How the results depend on the processing

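With cKO peaks kept, strongest first, up to the length WT peaks cover, total member length became 0.623 times that in WT and the median ratio 1.74. The median difference in coverage became −2.80 points, with 6 genes at least 10 points higher and 14 lower, 18 genes had a cKO peak assigned, and 8 and 2 genes were at least 2 times longer and shorter. Termination-site and intron shares in cKO were then 35% and 50%, and 18.0% of WT and 90% of cKO peaks were shared. With as many cKO as WT peaks, strongest first, the median difference was 16.1 points, 1 gene (Atp5g1) was at least 10 points lower, 0 were at least 2 times shorter, introns held 58.0% of cKO peaks, and sharing was 86.8% of WT and 50.5% of cKO peaks. At a fold of at least 4, 1 gene (Atp5g1) was at least 10 points lower, 0 were at least 2 times shorter, and 94.5% of WT peaks were shared. At a −log10 q of at least 5, 20.3% of cKO peaks were shared. By RefSeq body overlap 0 genes were at least 2 times shorter. At a reciprocal overlap of 50%, 14.4% of WT and 5.46% of cKO peaks were shared. Fewer peaks enter the reduced lists by construction, and no other cause was tested. Under the other alternatives, counts and ratios stayed within 1.5 times and shares within their intervals.

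No paired analysis was possible because each genotype had 1 ChIP library. Leaving out a library was not possible either. A body without a peak is not shown to lack the mark at this depth.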
